A study of Mus musculus with 16 samples.

Results

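The genes described here are 9 genes of MHC class II antigen presentation and T cell co-stimulation: H2-Aa, H2-Ab1, H2-Eb1, H2-DMa, H2-DMb1, Cd74, Ciita, Cd86 and Cd40. They were taken as all probes of the deposited value table whose platform symbol is one of these names, which gave 12 of the 24607 gene probes on the array and 9 of the 15161 genes named on it. Of these, 11 probes, with at least 1 for every gene, were above array noise on 3 or more of 12 animal arrays and entered the tests. The remaining probe, the dimmer of 2 for Cd40, was below noise on every animal array and has no level here.

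The samples were adherent peritoneal macrophages of female mice, collected 5 days after an injection of thioglycollate, an irritant that draws inflammatory cells into the peritoneal cavity, and plated for 2 hours before loose cells were washed off. All mice, controls included, lacked Apoe and had eaten a Western diet for 10 weeks up to the age of 15 weeks, a setting that raises plasma cholesterol. The 6 mice labelled transgenic were SR-uPA+/0, described as overexpressing urokinase plasminogen activator (uPA) in macrophages, and the other 6 mice were nontransgenic. RNA of each mouse was hybridised to its own Illumina Mouse Ref-8 array, and 1 pool per genotype, made from the same 6 RNAs, was hybridised 2 times. The sources used here do not name the transgene's promoter, its founder line or the mouse strain.

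An MHC class II molecule is a pair of an alpha and a beta chain that holds a peptide from ingested protein and shows it to CD4+ T cells. The chains are assembled on the invariant chain (Cd74), which blocks the groove until it is degraded in endosomes, and the H2-DM dimer then exchanges its last fragment for other peptides. In macrophages these genes are switched on together, mainly by interferon gamma, through the coactivator CIITA. CD86 and CD40 lie outside the CIITA programme: CD86 gives T cells their second signal through CD28, and CD40 receives a signal back from activated T cells.

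CIITA does not bind DNA itself but docks on factors bound to an upstream element whose conserved boxes include an X box and, closer to the gene, a Y box holding an inverted CCAAT. The promoter windows below are shown because 3 members carry letters of both boxes in the same arrangement. The windows are RefSeq sequences of mouse build GRCm38.p6, reading from 250 bases before to 50 bases after the annotated start on the gene's strand. Capitals mark the letters GNAACT, searched as the X box, and TGATTGG, searched as the Y box, with 20 to 40 bases between them.
H2-DMb1: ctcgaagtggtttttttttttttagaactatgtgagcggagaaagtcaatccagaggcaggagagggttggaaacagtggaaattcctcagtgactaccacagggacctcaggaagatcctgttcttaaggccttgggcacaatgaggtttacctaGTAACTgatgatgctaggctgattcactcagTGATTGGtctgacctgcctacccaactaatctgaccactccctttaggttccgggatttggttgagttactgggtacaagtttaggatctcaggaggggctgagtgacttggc
H2-Aa: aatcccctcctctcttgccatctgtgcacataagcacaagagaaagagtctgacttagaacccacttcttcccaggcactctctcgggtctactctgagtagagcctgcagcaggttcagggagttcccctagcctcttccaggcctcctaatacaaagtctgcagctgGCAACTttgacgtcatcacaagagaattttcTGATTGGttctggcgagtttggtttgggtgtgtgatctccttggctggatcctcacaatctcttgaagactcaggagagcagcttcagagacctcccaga
H2-Eb1: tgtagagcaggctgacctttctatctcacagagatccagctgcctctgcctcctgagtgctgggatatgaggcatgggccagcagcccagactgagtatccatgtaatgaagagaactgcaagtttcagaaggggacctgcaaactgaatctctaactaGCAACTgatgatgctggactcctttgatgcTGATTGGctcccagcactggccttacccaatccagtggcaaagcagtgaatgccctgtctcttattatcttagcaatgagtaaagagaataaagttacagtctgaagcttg

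The H2-DMb1 window is chr17:34152941-34153240 on the plus strand, the H2-Aa window chr17:34287774-34288073 on the minus strand and the H2-Eb1 window chr17:34305617-34305916 on the plus strand. The letters between the boxes numbered 25 in H2-DMb1, 25 in H2-Aa and 24 in H2-Eb1. RefSeq windows outside chromosome 18 were found for 4 members, and the pair of boxes was in neither of the 2 windows of H2-DMa. H2-Ab1, Ciita, Cd86 and Cd40 had no entry. Windows on chromosome 18, where Cd74 lies, were left out of this reading of the members. The pattern was written after the members' sequences had been read, and both strands of every window on all chromosomes were searched. It occurred in 70 of 32851 promoter windows (0.213%), while the X letters alone were in 42.8% and the Y letters alone in 7.82%. No window of Cd74 was read, so its absence from the genes with the pattern says nothing about its promoter. In the RefSeq gene order on chromosome 17, H2-DMa, H2-DMb1, H2-Ab1, H2-Aa and H2-Eb1 lie in 1 cluster with H2-DMb2, H2-Ob and the class I genes Psmb9, Tap1, Psmb8 and Tap2 between them.

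None of the 11 tested member probes passed the adjusted threshold of 0.05 between genotypes, in limma with Benjamini-Hochberg adjustment over all 10534 tested probes. Across the array 77 probes passed (0.731%), 11 of them higher in transgenic animals (0.104%) and 66 lower (0.627%). The log2 difference, transgenic minus nontransgenic, was above 0 at 11 of 11 member probes, with a median of 0.32, against 52.2% of all tested probes and a median of 0.01. At an unadjusted p under 0.05 stood 4 of the 11, against 8.53% of all tested probes: H2-Eb1, Cd74, H2-Aa and Ciita. All 4 were higher in transgenic animals, as were 4.03% of all tested probes, against 4.5% lower. The member probes share animals and vary together, so these counts are not 11 separate observations. In every member the values of the 2 genotypes overlapped, as the plot of intensities by animal shows, whereas 0.351% of all tested probes were higher in transgenic animals with no overlap and 0.731% lower.

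**Figure D1:**
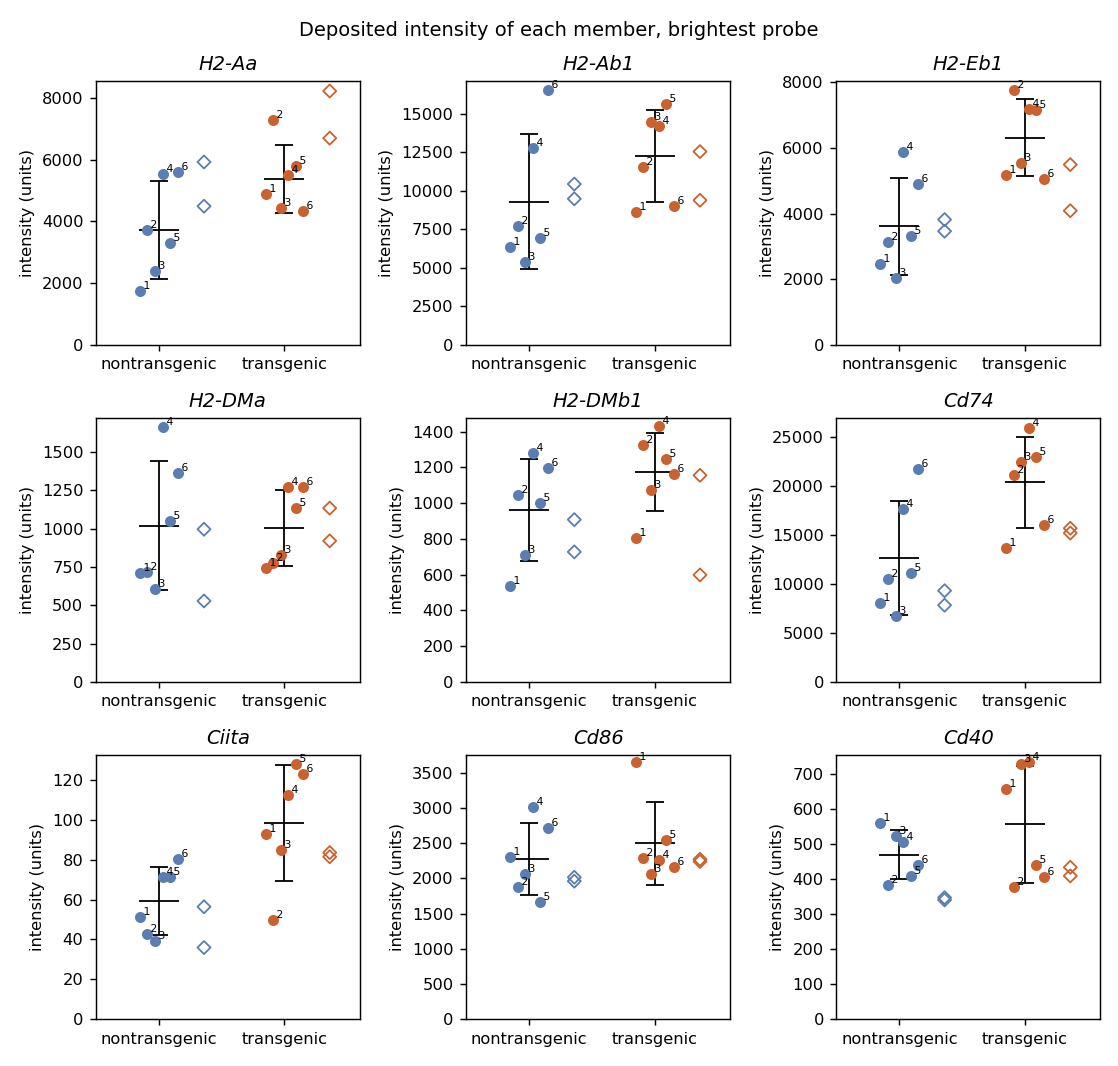
Deposited intensity (arbitrary units, linear axis from 0) of the brightest probe of each of the 9 genes, with 1 numbered point per animal, a bar at the mean with the SD of 6 animals, and open diamonds for the 2 hybridisations of each genotype's pool. Nontransgenic animals 4 and 6 sit within or above the transgenic range for H2-Aa, H2-Ab1, H2-DMa and Cd74, and nontransgenic animals 1 and 3 sit lowest in all but Ciita, Cd86 and Cd40.

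Several measures of the whole array bear on these values. Between 9543 and 9551 probes were above noise on each animal array. The noise limit, 56.8 to 56.9 units on every animal array, was taken from deposited values that were already normalized. The near-equal counts therefore do not measure array quality. Transgenic 1 and transgenic 6 had the lowest median correlation with the other animals, 0.969 and 0.973 against 0.976 to 0.980 for the rest. The labels do not say which array lay on which chip, and no batch could be tested. Plau, which encodes uPA, did not separate the labels: its intensity was 1825 ± 1103 in nontransgenic and 1660 ± 972 in transgenic animals (SD, n = 6 each; exact permutation p = 0.786, two-sided). The labels do not place this probe inside or outside the sequence that the transgene carries, and a probe outside it checks nothing. The macrophage genes Emr1 (F4/80), at 9013 ± 678 and 8745 ± 911, and Lyz2 (lysozyme), at 51485 ± 4961 and 52919 ± 5283, were bright in both genotypes, while Msr1 and Cd163 were below noise on every animal array. Each array held the RNA of 1 mouse, so the spread behind the p-values joins differences between animals with those of the array measurement.

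H2-Eb1, the beta chain of the class II molecule I-E, had the smallest p of the 9 genes. Its intensity ran from 2025 through a median of 3225 to 5877 in nontransgenic animals and from 5066 through 6349 to 7756 in transgenic animals. All transgenic animals were above 5 of the 6 nontransgenic animals, and nontransgenic 4, at 5877, was the exception that made the groups overlap. The means were 3618 ± 1478 and 6317 ± 1184 (SD, n = 6 each), and the log2 difference was 0.86 ± 0.22 (SE), a 1.82-fold ratio with a 95% interval of 1.32 to 2.50. It did not pass the threshold in limma (adjusted p = 0.0978), and an exact permutation test of the deposited intensities over the 12 animals gave p = 0.0152 (two-sided, unadjusted). By p it stood 20th among probes higher in transgenic animals. Without nontransgenic 4 the log2 difference was 1.02 and the adjusted p from limma 0.0218, the only left-out animal that brought any member past the threshold. In mice of the H2-b haplotype, such as C57BL/6, the partner chain gene H2-Ea is defective and I-E is not displayed; H2-Ea had no named probe here.

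H2-Aa and H2-Ab1 encode the alpha and beta chains of I-A, the class II molecule that all common mouse strains display. H2-Aa ran from 1748 through 3516 to 5598 in nontransgenic and from 4323 through 5194 to 7296 in transgenic animals. Of the nontransgenic animals 4 lay below every transgenic animal, while nontransgenic 4 and 6 lay inside their range. The H2-Aa log2 difference was 0.61 ± 0.24 (SE), a 1.52-fold ratio, with an adjusted p of 0.474 in limma and an exact permutation p of 0.0693. The brighter H2-Ab1 probe ran from 5403 through 7338 to 16551 in nontransgenic and from 8617 through 12857 to 15643 in transgenic animals. Here too 4 nontransgenic animals lay below all transgenic ones, and nontransgenic 6 had the highest value of all 12. Its log2 difference was 0.48 ± 0.24 (adjusted p = 0.622, limma), and that of the dimmer probe was 0.36 ± 0.23 (adjusted p = 0.718, limma), or 0.21 without nontransgenic 3 and 0.56 without nontransgenic 6. The deviations of both H2-Ab1 probes from their genotype means followed each other across animals (r = 0.827, n = 12, a description of 2 probes on the same arrays).

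Cd74, the invariant chain, ran from 6718 through 10810 to 21689 in nontransgenic animals and from 13649 through 21779 to 25968 in transgenic animals. Nontransgenic 1, 2, 3 and 5 lay below every transgenic animal, and nontransgenic 4 and 6 lay within the transgenic range. The means were 12638 ± 5833 and 20361 ± 4625 (SD, n = 6 each). The log2 difference was 0.76 ± 0.25 (SE), a 1.69-fold ratio with a 95% interval of 1.17 to 2.44, which missed the threshold in limma (adjusted p = 0.311), with an exact permutation p of 0.0346.

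The peptide-exchange genes differed less. H2-DMa ran from 609 through 882 to 1665 in nontransgenic and from 742 through 981 to 1272 in transgenic animals. Both groups covered nearly the same range, with nontransgenic 4 highest and nontransgenic 3 lowest of all 12. Its log2 difference was 0.03 ± 0.22 (adjusted p = 0.980, limma), with a 95% interval of -0.43 to 0.49, and its sign turned when any of 6 animals was left out. H2-DMb1, the beta chain of the same dimer, ran from 535 through 1020 to 1280 and from 802 through 1205 to 1430. Only nontransgenic 1 and 3 lay below all transgenic animals. The H2-DMb1 log2 difference was 0.30 ± 0.18 (adjusted p = 0.713, limma), and without nontransgenic 1 it was 0.16. H2-DMb1 and H2-DMb2 are near-identical copies, so their probes may read each other's transcripts.

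Ciita, the coactivator of the class II genes, was the dimmest member and close to the noise limit, above it in 3 of 6 nontransgenic and 5 of 6 transgenic animals. Its intensity ran from 39.3 through 61.2 to 80.5 in nontransgenic and from 49.9 through 103 to 128 in transgenic animals. All transgenic animals but transgenic 2 were above every nontransgenic animal. The log2 difference was 0.32 ± 0.12 (adjusted p = 0.455, limma; exact permutation p = 0.0217). Because the log2 scale used here in effect adds 96.95 units to every value, that difference understates the ratio of the mean intensities, 1.66, and with values raised to the noise limit instead it was 0.57.

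The co-stimulatory molecules showed small differences. Cd86 ran from 1666 through 2185 to 3023 in nontransgenic and from 2066 through 2283 to 3654 in transgenic animals at its brighter probe. Apart from transgenic 1, the transgenic animals lay between 2066 and 2547, inside the nontransgenic range. The log2 difference was 0.13 ± 0.16 (adjusted p = 0.865, limma) at that probe and 0.17 ± 0.18 (adjusted p = 0.847, limma) at the dimmer one, and deviations at both probes followed each other only loosely (r = 0.272, n = 12). Without transgenic 1 the log2 differences were 0.02 and 0.05, and without transgenic 3 that of the dimmer probe was 0.05. Cd40 ran from 382 through 472 to 558 in nontransgenic and from 376 through 548 to 732 in transgenic animals. Transgenic 1, 3 and 4 were above every nontransgenic animal and the other 3 transgenic animals were not. Its log2 difference was 0.17 ± 0.16 (adjusted p = 0.824, limma), and 0.10 without transgenic 3 or without transgenic 4.

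**Figure D2:**
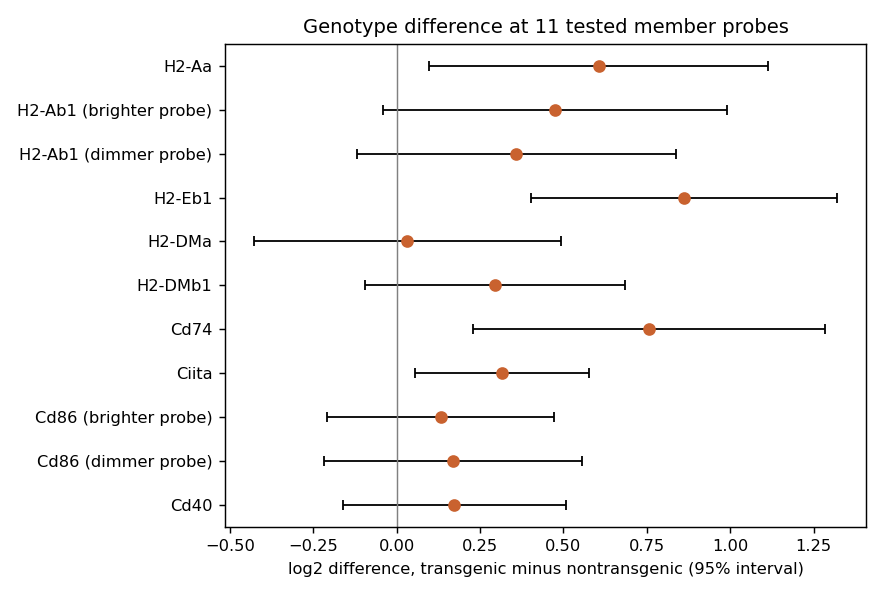
Log2 difference between genotypes (transgenic minus nontransgenic, 6 animals each) at the 11 tested member probes, with 95% intervals from limma that are not adjusted for the number of probes. All 11 points lie above 0, from 0.03 for H2-DMa to 0.86 for H2-Eb1, and the intervals of H2-Aa, H2-Eb1, Cd74 and Ciita do not reach 0.

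The members also differed in how far animals of the same genotype spread. The coefficient of variation of the H2-Aa, H2-Ab1, H2-Eb1, H2-DMa and Cd74 probes was 40.9% to 49.9% in nontransgenic animals and 9.48% to 24.9% in transgenic animals. Cd40 and the dimmer Cd86 probe went the other way, at 14.9% and 10.6% in nontransgenic and 30.01% and 46.1% in transgenic animals. The SD of log2 values was larger in nontransgenic animals at 8 of 11 member probes, against 37.1% of all tested probes. The difference in spread was not tested.

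The pools gave a repeat of the array measurement but not of the animals. On the log2 scale, 10 of the 11 probes were higher in the transgenic pool, and at 6 of them both transgenic hybridisations were above both nontransgenic ones. The same shares over all tested probes were not computed, so these counts only describe the pools and are no result about the members. Cd74 read 15196 and 15682 in the transgenic pool against 9303 and 7823 in the nontransgenic pool. H2-Eb1 read 4086 and 5494 against 3461 and 3817, so the transgenic pool lay below the transgenic animals' mean, at 0.758 of it. H2-Aa read 6695 and 8224 against 4490 and 5922, above the animals' means in both genotypes. The 2 hybridisations of 1 pool differed by up to 1.93-fold (H2-DMb1), and the mean of a pool ranged from 0.678 to 1.40 of the mean of its animals.

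Across animals, the class II chains and the invariant chain followed each other after genotype means were removed, in some pairs less closely among transgenic animals. For each of 36 pairs of members, deviations from the genotype mean were correlated over the 12 animals, with p-values from 100000 permutations within genotype adjusted over the 36 pairs. Of the pairs, 10 passed at 0.05 by both Pearson's r and Spearman's rho. H2-Ab1 and Cd74 gave r = 0.966 and rho = 0.972 (permutation p = 3e-05 and 8e-05, adjusted 0.00108 and 0.00288), with r = 0.980 among nontransgenic and 0.927 among transgenic animals. H2-Aa and H2-Eb1 gave r = 0.905 and rho = 0.944 (permutation p = 0.00159 and 0.00071, adjusted 0.0154 and 0.00852). Without the 2 animals farthest from the median these became r = 0.926 and 0.941. Both relations were therefore present within each genotype and did not rest on the most distant animals. The main axis of variation over all tested probes (principal component 1, 18.9% of variance) ordered the nontransgenic animals in a similar way. Its values were -14.68, -10.75, -15.64, 11.79, 5.598 and 11.58 for nontransgenic 1 to 6, with transgenic 1 at -24.79. The part of this array-wide axis in the relations was not tested, and the share of all gene pairs that would pass was not computed.

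Of the 6 pairs among H2-Aa, H2-Ab1, H2-Eb1 and Cd74, 5 passed by both measures. The exception was H2-Aa with H2-Ab1, the 2 chains of I-A, which passed by rho (0.804, permutation p = 0.0071, adjusted 0.0262) but not by r (0.756, p = 0.0197, adjusted 0.0576); r was 0.885 among nontransgenic and 0.289 among transgenic animals. H2-DMb1 passed with H2-Aa, H2-Eb1 and Cd74 (r = 0.861, 0.828 and 0.833; permutation, adjusted p = 0.0154, 0.0165 and 0.0162). H2-DMa passed with Cd74 (r = 0.778, permutation, adjusted p = 0.0446), where r was 0.919 among nontransgenic and 0.349 among transgenic animals. H2-DMa also passed with Ciita (r = 0.777, permutation, adjusted p = 0.0162), at 0.905 among nontransgenic and 0.778 among transgenic animals. Ciita passed with no other member, and its r with Cd74 was 0.862 among nontransgenic and -0.02 among transgenic animals. Among transgenic animals r was 0.404 for H2-Aa with Cd74 and 0.499 for H2-Aa with H2-DMb1. The same pairs gave 0.914 and 0.974 among nontransgenic animals. H2-DMb1 with Cd74 gave 0.842 among transgenic and 0.834 among nontransgenic animals. The difference between genotypes in these relations was not tested. No pair with Cd86 or Cd40 passed, with r from -0.37 to 0.35.

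**Figure D3:**
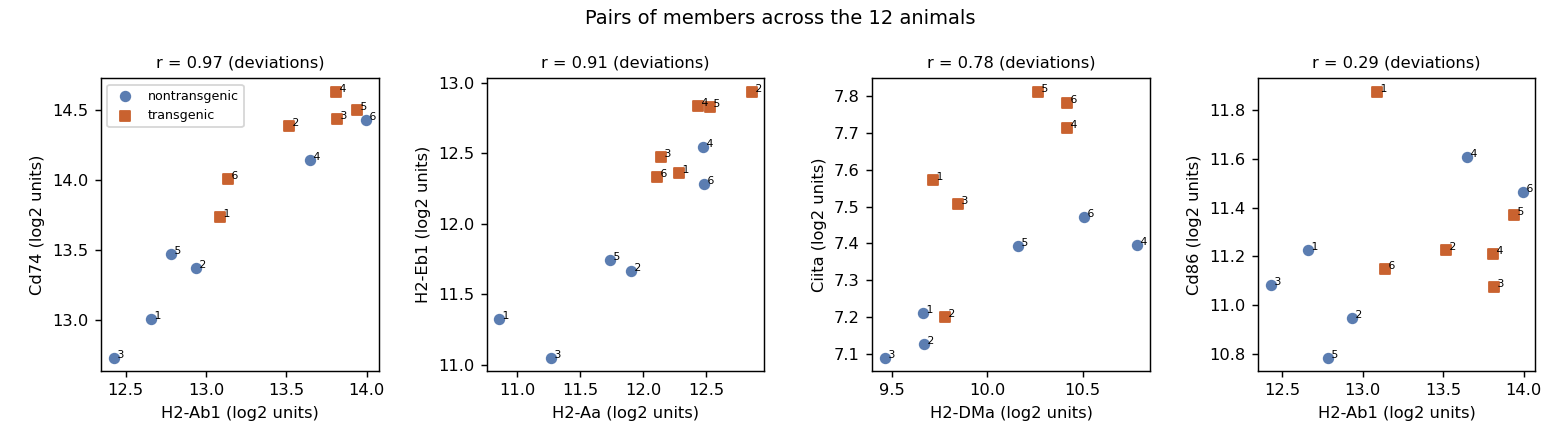
Normalised log2 intensity of 4 pairs of members, 1 numbered point per animal (circles nontransgenic, squares transgenic), with Pearson's r of the deviations from the genotype means above each panel. H2-Ab1 with Cd74 (r = 0.97), H2-Aa with H2-Eb1 (0.91) and H2-DMa with Ciita (0.78) passed the test over 36 pairs, and H2-Ab1 with Cd86 (0.29) did not.

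In the order of the 12 animals, genotype difference included, nontransgenic 3 was lowest or next to lowest of 12 for H2-Aa, H2-Ab1, H2-Eb1, H2-DMa, H2-DMb1 and Cd74, and so was nontransgenic 1. Nontransgenic 4 had the highest H2-DMa value of the 12. For Cd86 and Cd40 nontransgenic 3 stood 9th and 5th of 12, and nontransgenic 1 stood 6th and 4th.

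**Figure D4:**
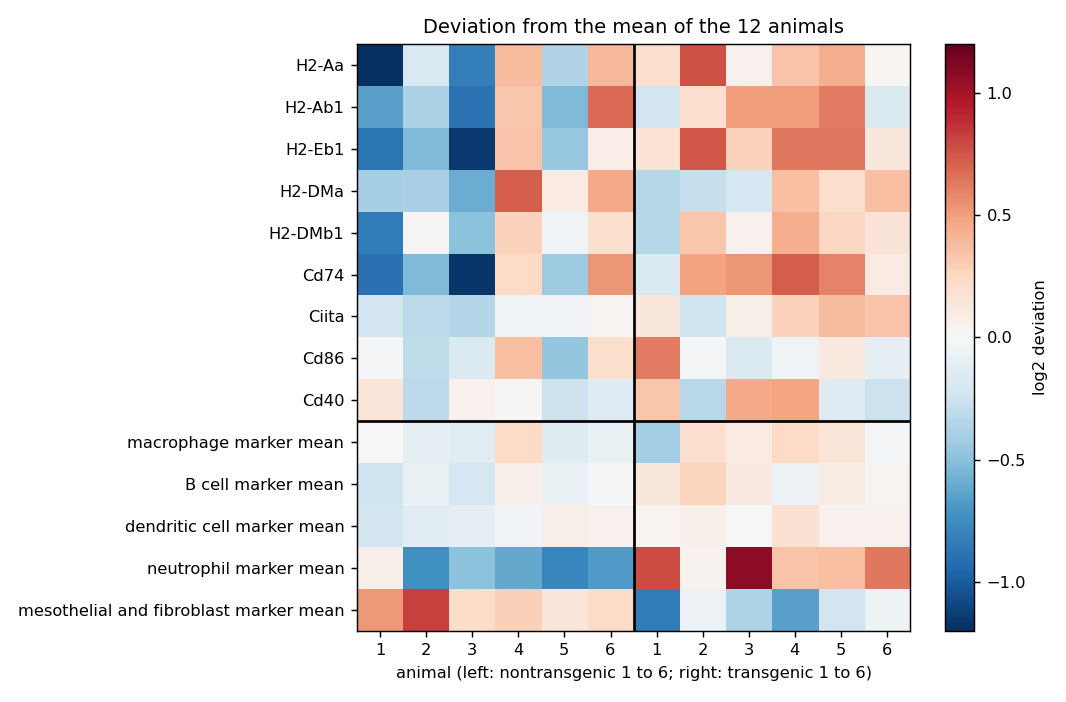
Deviation of each animal from the mean of the 12 animals (log2 colour scale from -1.2 to 1.2) for the brightest probe of each member and for the mean of 5 marker lists. Blue cells of nontransgenic animals 1 and 3 run through the class II chains, H2-DM genes and Cd74. The marker rows are means over several genes, so their depth of colour cannot be set against that of single genes.

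Outside the members, the genes whose deviations were most like theirs over the 12 animals, among 5672 genes above noise on all animal arrays, are given as a description. For H2-Eb1 they were Trf (transferrin, r = 0.972), C1qc (a chain of complement C1q, 0.966) and Aif1 (the macrophage protein IBA1, 0.956). For H2-Ab1 and for Cd74 the other was in first place (r = 0.965), followed for both by Eif4ebp2, a translation repressor (0.918 and 0.955), and Trf (0.911 and 0.953). For H2-Aa they were Cdkn1c, a cell cycle inhibitor (0.932), Tgm1, a transglutaminase (0.906), and H2-Eb1 (0.905). Cdkn1c was also first for H2-DMb1 (0.930), before Tmem9 and Ttyh3. None of these genes passed the genotype test: the log2 difference of Trf was 0.52 (adjusted p = 0.699, limma), of C1qc 0.12 (0.856) and of Aif1 0.03 (0.980).

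For the remaining members the likeness was to other genes. Acss1, Miip and Mospd3 were most like H2-DMa (r = 0.901, 0.897 and 0.891), and Pla2g15, Rrp9 and Mydgf were most like Ciita (0.917, 0.916 and 0.900). Cd86 was most like Krt6b, Sh3glb2 and Prm2 (0.893, 0.876 and 0.845). Cd40 was most like Flrt3 (0.896), Clec4e, a receptor for mycobacterial and damage-derived lipids (0.894), and Tnfrsf1b, a receptor of tumour necrosis factor (0.893).

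Class II genes are also expressed by B cells and dendritic cells, so markers of other cells were read on the same arrays. In bulk RNA, fewer cells of a type and less RNA per cell cannot be told apart. Of 12 B cell markers 5 were tested, and their mean log2 value ranged from 7.46 to 7.76 in nontransgenic and from 7.63 to 7.96 in transgenic animals, a difference of 0.19 (exact permutation p = 0.0195, adjusted over 8 lists 0.0433). Both alternatives ended that call, with an adjusted exact permutation p of 0.0762 without transgenic 1 and 6 and 0.0623 with values raised to the noise limit. The largest difference among the 5 was that of Cd79b, a chain of the B cell receptor complex, at 203 ± 108 and 404 ± 142 (log2 difference 0.76, adjusted p = 0.205, limma). The others were Ms4a1 at 0.13, Cd22 at 0.03, Blk at 0.009 and Fcrla at -0.005, with a median of 0.03 over the 5. The difference of the mean over these 5 thus came mostly from Cd79b. Cd79a, on the same list, was too dim to be tested, above noise on 0 nontransgenic and 2 transgenic animal arrays. It read -5.21 ± 17.9 in nontransgenic and 41.6 ± 47.5 in transgenic animals. Pax5, Cr2 and Vpreb3 were below noise on all animal arrays. The kappa light chain constant probe read 593 ± 384 and 600 ± 280, and that of the mu heavy chain 153 ± 132 and 130 ± 85.4. The lambda 2 light chain probe read 152 ± 80.1 and 276 ± 107 (log2 difference 0.59, adjusted p = 0.421, limma; exact permutation p = 0.0498), and the lambda 1 probe read 74.6 ± 22.7 and 97.5 ± 18.0 (0.19, adjusted p = 0.699, limma). The alpha heavy chain probe read 76.4 ± 21.2 and 70.8 ± 27.1, and the delta heavy chain probe was below noise on all animal arrays. These 6 probes were read after the other values had been seen, and are named by the array's probe label.

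Of 12 dendritic cell markers 6 were tested, with means of 7.52 to 7.82 and 7.75 to 7.93 and a difference of 0.13 (exact permutation p = 0.0390, adjusted 0.0623), while Clec9a and Kmo were below noise on all animal arrays. Of 16 neutrophil markers 10 were tested and averaged 8.74 to 9.58 and 9.56 to 10.6, a rise of 1.08 (exact permutation p = 0.00433, adjusted 0.0173). Ngp, Mpo, Elane and Mmp8 were below noise throughout. Of 15 mesothelial and fibroblast markers 12 were tested and averaged 8.57 to 9.24 and 7.59 to 8.37, a difference of -0.74 (exact permutation p = 0.00216, the smallest these animals allow, adjusted 0.0173), with Lum below noise throughout. Of 12 T cell markers only Cd2 and Il7r were tested, with a difference of -0.22 (exact permutation p = 0.0217, adjusted 0.0433, and 0.0762 without transgenic 1 and 6), and Cd3e, Cd3g, Cd4 and Zap70 were below noise throughout. The macrophage, large resident macrophage and mast cell lists differed by 0.08, -0.01 and 0.09 (exact permutation, adjusted p = 0.567, 0.935 and 0.537), and no eosinophil marker was tested. Of 7 tested large resident macrophage markers 4 were above 0 and 3 below, so the list mean hides opposite differences. Gata6 differed by -0.87, Timd4 by -0.25 and Lrg1 by 0.67 (adjusted p = 0.296, 0.554 and 0.422, limma). The part of these cells in the class II values was not tested.

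Each member was also set against the B cell and the dendritic cell marker mean across animals, and 0 of 18 relations passed. Several of the markers were near the noise limit, which limits what these relations can show. Blk and Flt3 were above it on 3 of 12 animal arrays, Dpp4 on 6 and Ms4a1 on 7. The closest was H2-Aa with the B cell mean, at r = 0.782 and rho = 0.692 (permutation p = 0.00325 and 0.0204, adjusted over 18 relations 0.0585 and 0.211), with 0.971 among nontransgenic and 0.532 among transgenic animals. Without the 2 animals farthest from the median r was 0.730. Among nontransgenic animals alone r with the B cell mean was also 0.949 for H2-Eb1, 0.967 for H2-DMb1 and 0.891 for Cd74, where transgenic animals gave 0.167, -0.24 and -0.23. For H2-DMa r was 0.890 among nontransgenic and -0.80 among transgenic animals, and for Ciita 0.702 and -0.80. For Cd40 r was -0.44 and -0.47.

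The remaining genes of the pathway were read from lists of related genes. Of 5 other class II chains and exchange factors, 2 were tested and 0 passed: H2-DMb2 at 0.34 (adjusted p = 0.663, limma) and H2-Oa, part of the dimer that restrains H2-DM, at 0.32 (0.521). H2-Oa was close to the noise limit, above it on 6 of 12 animal arrays. H2-Ob was below noise on all animal arrays, and H2-Ea and H2-Eb2 had no named probe. Of 11 genes of class II antigen processing, 10 were tested, 0 passed and the median log2 difference was 0.05. They include the endosomal proteases, and the 3 with the smallest p were Ctsz (a cathepsin, 0.25, adjusted p = 0.767), Ifi30 (the lysosomal thiol reductase GILT, 0.22, 0.735) and Cst3 (a cathepsin inhibitor, -0.13, 0.781). Ctss, the protease that trims the invariant chain, gave 9585 ± 2054 and 8875 ± 1406 with a log2 difference of -0.10 (adjusted p = 0.903, limma).

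Of 17 genes of class II transcription and the interferon gamma pathway, 13 were tested, 0 passed and the median was 0.06. Socs1, a feedback inhibitor of that pathway, stood at 336 ± 53.7 and 475 ± 75.9 (log2 difference 0.40, adjusted p = 0.243, limma). Jak2, the kinase of its receptor, stood at 633 ± 125 and 446 ± 116 (-0.43, adjusted p = 0.404, limma), and Nfyb, a subunit of the Y box factor, at 448 ± 38.3 and 379 ± 98.9 (-0.22, adjusted p = 0.699, limma). Rfx5, a subunit of the X box factor, was above noise on 3 of 12 animal arrays.

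Of 16 other co-stimulatory and co-inhibitory ligands, 8 were tested, 0 passed and the median was 0.11. Icam1, an adhesion ligand of T cells, differed by 0.61 (adjusted p = 0.492, limma), Cd83, which in mice slows the removal of class II and CD86 from the surface, by 0.49 (0.446), and Cd276 by -0.38 (0.479). Cd80, the other ligand of CD28, stood at 1140 ± 175 and 1353 ± 121 (0.24, adjusted p = 0.590, limma).

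Of 12 genes of CD40 signalling, 10 were tested, 0 rose and 1 fell. Relb, a subunit of NF-kappaB in the branch that CD40 uses, was 842 ± 229 in nontransgenic and 231 ± 46.8 in transgenic animals (SD, n = 6 each), with no overlap. Its log2 difference was -1.49 ± 0.17 (SE; adjusted p = 0.000214, limma), and the direction was also lower with each animal left out. The list had a median of 0.13, and Nfkb2, which encodes the partner of Relb, gave 0.15 (adjusted p = 0.859, limma). The plot by gene list shows Relb apart from the other CD40 signalling genes.

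**Figure D5:**
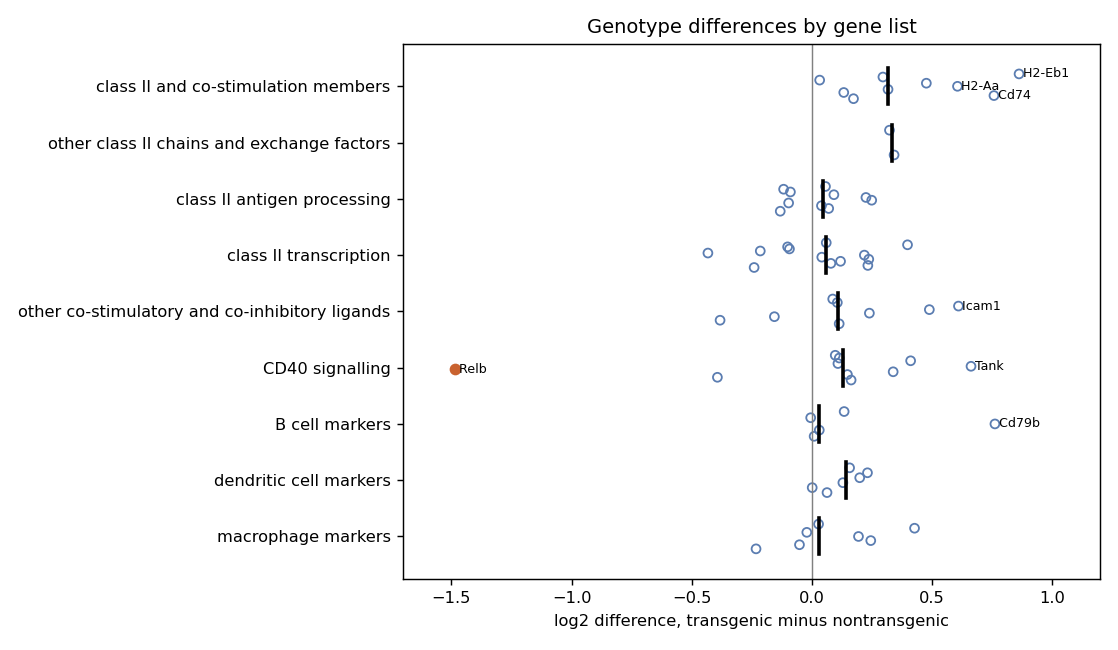
Log2 difference between genotypes (transgenic minus nontransgenic) for the tested genes of 9 lists, 1 point per gene at its brightest probe, with a bar at each list's median and filled points for genes past an adjusted p of 0.05. Relb, at -1.49, is the only filled point. The members' median of 0.32 lies to the right of the medians of the processing (0.05) and transcription (0.06) lists. It lies beside that of the other class II chains and exchange factors (0.33, 2 genes).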

How the data were processed

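The authors deposited background-subtracted, normalized intensities of 16 Illumina arrays, with negative values kept. The submitters' processing notes name BeadStudio. Neither its release nor the kind of normalization was stated in the sources used here. Another deposited table holds 32 columns whose names match no sample's labels, and it was left out.

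From these intensities, 4 control probes were removed, leaving 24607. Values of the 12 animals were passed through normexp (saddle, offset 16), quantile-normalized and put on a log2 scale in limma 3.58.1 (R 4.3.3); this in effect added 96.95 units. The noise limit was 1.64 times the root mean square of values below 0 on each array. Probes above it on at least 3 animal arrays were tested (10534) two-sided (lmFit, eBayes), and p-values were adjusted by Benjamini and Hochberg's method at 0.05. Pools stayed out of the fit. Where a gene had several probes, the brightest tested one stands for it in lists. Exact permutation tests ran over all assignments of the animals, on deposited intensities for single probes and on mean normalized log2 values for marker lists. The number of animals limits the precision.

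The members, the lists and the rule for named genes (all members, list genes past the threshold or else the 3 with the smallest p, and the 3 genes most like each member) were chosen with earlier results of these data known. Additional genes (Ctss, Rfx5, Cd80, Nfkb2 and the immunoglobulin probes) were named after their values were seen. The fit was tested on simulated data. Alternatives changed the background step, offset, normalization, dim-probe filter, variance model, array weights and animals.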

Additional observations from a re-analysis of the deposited data

Results flagged for a closer look

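In 96 groups of 6 animals checked for an animal far from the others, 7 had one, where chance flags about 1 in 20 groups. Among the members this was the case only for the brighter Cd86 probe, where transgenic 1 read 3654 against 2547 for the next highest transgenic animal. In the transcription list, Jak2 was 396 in nontransgenic 3 against 625 for the next lowest, and Socs1 was 331 in transgenic 5 against 470 for the next lowest. Among neutrophil markers, S100a8 was 10790 in nontransgenic 1 against 4406 for the next highest, and Retnlg was 1709 in nontransgenic 4 against 848. Among large resident macrophage markers, transgenic 6 was highest for both Gata6 (791 against 300) and Timd4 (138 against 79.9).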

How the results depend on the processing

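The direction of 10 of the 11 member differences was the same under every alternative tried. With single animals left out, H2-DMa ranged from -0.0838 to 0.181 and turned sign without nontransgenic 1, 2 or 3 or transgenic 4, 5 or 6. Cd22 likewise ranged from -0.0658 to 0.127 and Tpsb2 from -0.260 to 0.00468. No member passed the threshold in limma except H2-Eb1 without nontransgenic 4, so the count ranged from 0 to 1 with single animals left out, and the adjusted p of H2-Eb1 was 0.0571 to 0.258 under the other settings that kept all animals or left out transgenic 1 and 6 together. Over all probes, the 11 higher became 7 without a filter, 5 with a filter for all 12 arrays and 7 without transgenic 1 and 6, and 6 to 15 with single animals left out. The 66 lower became 35 without a filter, 28 with a filter for all 12 arrays and 35 to 78 with single animals left out. Marker lists past the threshold went from 4 to 2 without transgenic 1 and 6; the B cell and T cell lists lost their calls there (adjusted exact permutation p = 0.0762 for each), and the B cell list also with values raised to the noise limit (0.0623). The causes were not tested. Pairs of members past the threshold numbered 10 to 11, and relations to marker means 0. Ciita was too dim to enter the fit restricted to probes above noise on all 12 arrays. Signal over background limits Ciita and the second Cd40 probe and, outside the members, dim list genes such as H2-Oa, Rfx5, Blk and Flt3. No paired analysis was possible because the labels give the animals no number that pairs them: the numbers used here follow the order of the samples and only name the animals, and those of the pools mark repeat hybridisations of 1 RNA.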
